A study of Homo sapiens with 12 samples.

Results

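The genes described are 10 death receptors and proximal signalling proteins, TNFRSF1A, TNFRSF10A, TNFRSF10B, TNFRSF10D, TNFRSF12A, TNFRSF21, FAS, FADD, CASP8 and CFLAR, among 32077 genes counted. They were chosen by name, with earlier results of these data known, and each was found in the count table. Cells of the prostate cancer lines PC3 and DU145, which do not need androgen to grow, were cultured for 48 hours with 2.5 μmol/L pentamidine, an anti-protozoal aromatic diamidine, or with its vehicle, sterile distilled water. mRNA was sequenced from 3 pentamidine-treated and 3 vehicle-treated samples of each line, 12 in all, and each library held between 13514195 and 15131436 counts. The comparisons address how pentamidine changed the mRNA of these genes in each line, whether the change differed between the lines, and how the lines differed without the drug. The study's figure legends speak of at least 3 independent experiments, without saying whether this covers the sequenced samples, so p-values measure only the spread between these samples, which may be technical.

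The line names are those of the labels, and the epithelial markers EPCAM and CDH1 did not bear out what is known of PC3 and DU145 as epithelial lines. EPCAM, an epithelial adhesion molecule, had 0 to 2 counts and CDH1, which encodes E-cadherin, 0 to 10 counts in every sample of both lines. The keratin gene KRT8 stood at 20.3 CPM (counts scaled to library size) in PC3 and 2712 CPM in DU145 vehicle-treated samples, and KRT18 at 155 and 915 CPM. Upon pentamidine treatment KRT18 rose in PC3, with an edgeR log2 fold change of 0.35 (SE 0.07, adjusted p = 0.000600), and fell in DU145 with -0.39 (SE 0.03, adjusted p = 1.14e-15). KRT8 fell in DU145, with a log2 fold change of -0.56 (SE 0.03, adjusted p = 1.88e-23), and did not pass the test in PC3 (adjusted p = 0.0868). By the test of the difference the effect differed between the lines for both, by 0.74 (SE 0.08, adjusted p = 2.99e-08) and 0.34 (SE 0.08, adjusted p = 0.00279). The 3 leukocyte markers analysed summed to at most 6 counts, the prostate luminal genes KLK2 and KLK3 to at most 3, the 3 endothelial markers to at most 17 and the 4 fibroblast markers to at most 41. The study's methods say that the lines were authenticated by short tandem repeat profiling. Their identity was not tested further here, and PC3 and DU145 below mean the samples so labelled.

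Among replicates, PC3 vehicle sample 1 stood furthest from its group, where the mean chi-square per gene was 5.98 against sample 2 and 7.30 against sample 3, while samples 2 and 3 gave 3.64. In the other groups the replicate pairs gave 1.72 to 3.13. The share of counts from mitochondria-encoded genes was 3.85% ± 0.0613 (SD, n = 3) in PC3 vehicle and 2.71% ± 0.0488 in PC3 pentamidine samples, and 4.54% ± 0.126 and 2.01% ± 0.0578 in DU145. With these genes left out the number of the 10 genes past the test was 5 in PC3 and 6 in DU145, the same as with them. Of all genes tested, mitochondria-encoded ones included, 43.4% passed in PC3 and 34.0% in DU145, so the PC3 count was near that share.

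Death receptors are members of the tumour necrosis factor (TNF) receptor family that carry a death domain inside the cell. When a ligand clusters them, the adaptor FADD joins the receptor and brings in pro-caspase 8, which is cleaved and starts apoptosis, unless the related protein FLIP, encoded by CFLAR, takes its place. TNFR1, the product of TNFRSF1A, mainly signals through NF-κB to inflammatory and survival genes, and decoy receptors bind the ligand without passing on the death signal.

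The receptors for the ligand TRAIL lie close together on chromosome 8 (coordinates on GRCh38 throughout). TNFRSF10A (ENSG00000104689, chr8:23190452-23225126, minus strand) and TNFRSF10B (ENSG00000120889, chr8:23020133-23069179, minus strand) encode the death receptors DR4 and DR5, and TNFRSF10D (ENSG00000173530, chr8:23135588-23164030, minus strand) encodes a decoy receptor with a truncated death domain. TNFRSF1A (ENSG00000067182, chr12:6328757-6342114, minus strand) encodes the main receptor for TNF. FAS (ENSG00000026103, chr10:88990582-89015785, plus strand) encodes the receptor for Fas ligand. TNFRSF21 (ENSG00000146072, chr6:47231532-47309905, minus strand) encodes the death domain receptor DR6. TNFRSF12A (ENSG00000006327, chr16:3018445-3022383, plus strand) encodes Fn14, the receptor for TWEAK, which has no death domain. Of the signalling proteins, FADD (ENSG00000168040, chr11:70203163-70207390, plus strand) encodes the adaptor. CASP8 (ENSG00000064012, chr2:201233443-201287711, plus strand) and CFLAR (ENSG00000003402, chr2:201116104-201176687, plus strand) lie on the same chromosome and strand.

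To compare levels between genes, the counts were normalised to library size by TMM and expressed as CPM per kilobase of the principal transcript. On that scale TNFRSF12A was the most abundant of the 10 in each group, at 347 ± 0.741 CPM per kilobase (SD, n = 3 here and for the other means) in PC3 vehicle and 160.0 ± 3.60 in DU145 vehicle samples. In PC3 vehicle samples TNFRSF1A (39.0 ± 2.11 CPM per kilobase) and CASP8 (37.9 ± 1.48) came next and overlapped between samples. TNFRSF10B followed at 32.5 ± 1.63, TNFRSF10A at 14.3 ± 0.141 and TNFRSF10D at 11.4 ± 0.225 CPM per kilobase, each apart from its neighbours. CFLAR, FADD and FAS lay between 5.70 and 8.15 CPM per kilobase, and FADD overlapped CFLAR, FAS and TNFRSF21. TNFRSF21 had the lowest mean on this scale, at 5.20 ± 0.828.

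In DU145 vehicle samples TNFRSF10B was next after TNFRSF12A, at 51.9 ± 2.06 CPM per kilobase, ahead of TNFRSF1A (32.2 ± 0.427) and CASP8 (29.8 ± 1.28). TNFRSF10A, TNFRSF10D and CFLAR followed in that order without overlap, and FADD, TNFRSF21 and FAS overlapped at 2.96 to 4.74 CPM per kilobase. In pentamidine samples TNFRSF1A and TNFRSF10B came behind TNFRSF12A in both lines, at 61.9 ± 1.65 and 50.7 ± 0.675 CPM per kilobase in PC3 and 42.8 ± 1.61 and 37.8 ± 0.228 in DU145. The order depends on the length used, since the principal transcript of CASP8, for example, has 1629 bases and all its exons together 7243. That of CFLAR has 14672 bases and all its exons together 22529, so its value per kilobase is low on both scales. Before division by length CFLAR stood above CASP8 in PC3 vehicle samples, at 115 against 61.8 CPM. Which transcripts the cells made was not tested. Over all exons TNFRSF12A was still highest in each group, but TNFRSF10B had a higher mean than TNFRSF1A in all 4 groups, at 26.2 against 21.7 CPM per kilobase in PC3 vehicle samples. There CASP8 stood at 8.53, below TNFRSF10A and TNFRSF10D, and CFLAR (5.10) and FAS (3.91) were below TNFRSF21 (5.20).

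**Figure D1:**
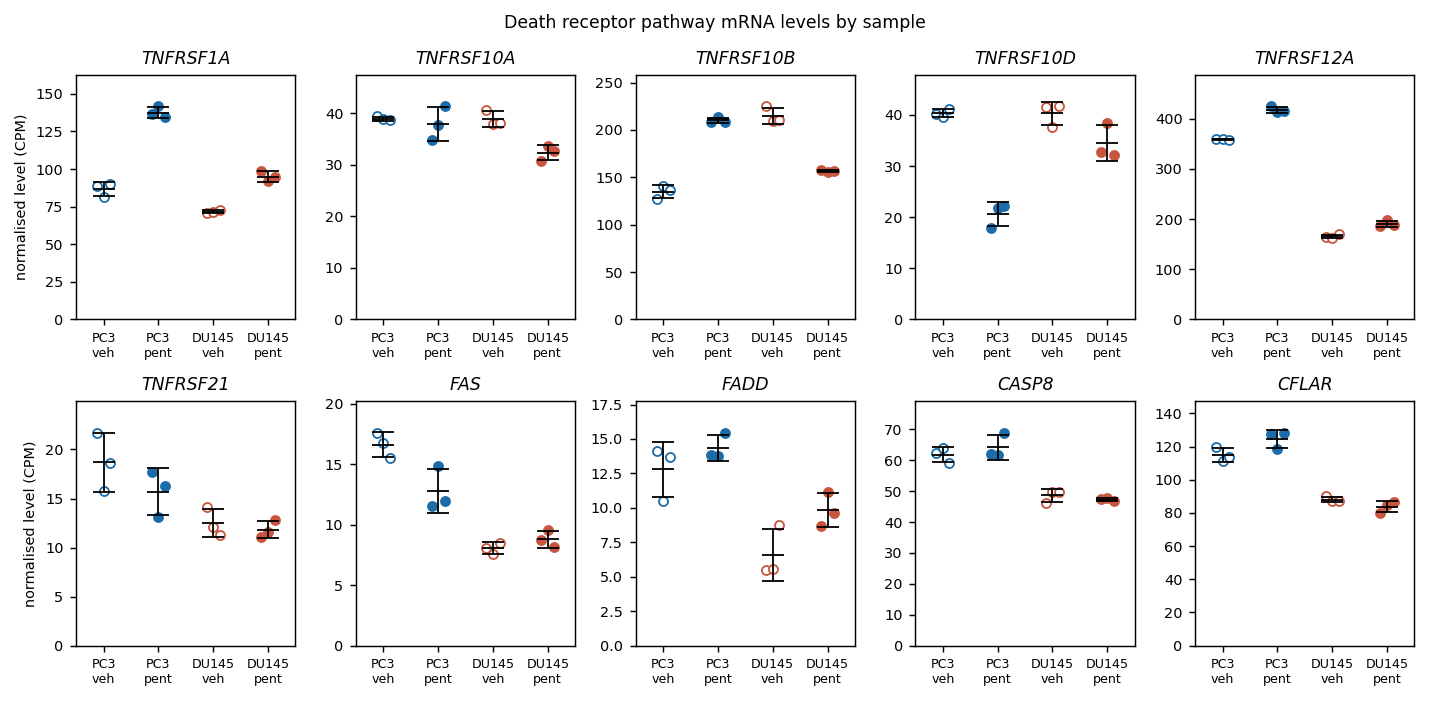
Normalised level (CPM) of each of the 10 genes in the 3 samples of each group, with open circles for vehicle (veh), filled circles for pentamidine (pent), blue for PC3 and red for DU145, and black lines for the mean ± SD. TNFRSF10B rises from 135 to 210.2 CPM in PC3 and falls from 215 to 157 CPM in DU145.

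FAS and CFLAR are known targets of NF-κB, as are the feedback genes TNFAIP3, BIRC3, TNIP1 and NFKB1 described further on. Promoter sequences of 250 bases before the transcription start (RefSeq, GRCh38.p14) were therefore searched on both strands for the 10-base NF-κB consensus. Of 35116 promoters in the RefSeq table, 9.96% held a match, and of 27305 genes 11.8% did. Entries were found for 6 of the 10 genes (TNFRSF1A, TNFRSF21, FAS, FADD, CASP8 and CFLAR), and a match was found in 1 of 3 FAS entries and 1 of 4 CFLAR entries, and none in the other 4 genes. The windows of 30 bases are written 5′ to 3′ along the gene, with the match in capitals, and are shown for the NF-κB targets named. TP73, a pathway gene described further on, also held a match, on both strands and 208 bases before its start, and its window is not printed. Most pathway genes were named because they changed. Of the 15 with an entry 5 held a match, and TNF and BIRC2, which fell in DU145, were among the 10 without. The FAS and CFLAR windows lie inside the annotated span of their gene, upstream of another of its starts.
CFLAR chr2:201118609-201118638, plus strand: cgcggggggcGGGGAATTCCgcagacagga
FAS chr10:88991264-88991293, plus strand: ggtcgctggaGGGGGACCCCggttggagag
TNFAIP3 chr6:137867188-137867217, plus strand: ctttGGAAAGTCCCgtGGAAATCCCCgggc
BIRC3 chr11:102317275-102317304, plus strand: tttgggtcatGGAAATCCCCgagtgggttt
BIRC3 chr11:102317339-102317368, plus strand: tattaccgctGGAGTTCCCCtaagtcctaa
TNIP1 chr5:151081057-151081086, minus strand: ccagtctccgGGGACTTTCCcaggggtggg
NFKB1 chr4:102501300-102501329, plus strand: cgacgtcagtGGGAATTTCCagccaggaag
The match in FAS reads as the consensus on both strands, and TNFAIP3 held a pair of matches that did not overlap. The matches in CFLAR, TNIP1 and NFKB1 were on the strand of the gene, and those in TNFAIP3 and BIRC3 on the opposite strand. They began 97 bases before the start in CFLAR, 157 in FAS, 67 and 55 in TNFAIP3, 199 and 135 in BIRC3, 42 in TNIP1 and 49 in NFKB1. A match describes the letters in these windows and is not a measured binding site.

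Before treatment, most of these genes were higher in PC3 than in DU145. Of the 10, 8 passed edgeR's quasi-likelihood test at an adjusted p (Benjamini-Hochberg over all genes tested) below 0.05, where 65.3% of the 14394 genes tested did, and 7 of them were higher in PC3 (31.5% of genes tested) and 1 lower (33.8%). The groups did not overlap for 8 of 10, beside 69.0%, and TNFRSF12A and FAS also exceeded a log2 difference of 1, as did 19.2% of genes tested. FAS fell below that limit without PC3 vehicle sample 1 (0.98) or DU145 vehicle sample 2 (0.97). FADD passed it without PC3 vehicle sample 2 (1.06) or DU145 vehicle sample 3 (1.19) and under scaling by library size alone (1.01). The level of TNFRSF12A was 359 ± 0.765 CPM in PC3 and 165 ± 3.72 CPM in DU145 vehicle samples, a log2 difference of 1.09 (SE 0.04, adjusted p = 2.73e-12). FAS was 2.03-fold higher in PC3, with a log2 difference of 1.02 (SE 0.11, adjusted p = 7.29e-07). FADD, TNFRSF21, CFLAR, CASP8 and TNFRSF1A were also higher in PC3, by 0.93, 0.56, 0.36, 0.32 and 0.25 on the log2 scale. TNFRSF10B was the exception, with a log2 difference of -0.70 (SE 0.05, adjusted p = 5.95e-09), lower in PC3. For TNFRSF10A and TNFRSF10D the log2 differences were -0.02 (adjusted p = 0.800) and -0.02 (adjusted p = 0.777), with overlapping groups and a direction that turned under scaling by library size alone.

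Upon pentamidine treatment, 3 of the 10 genes rose and 2 fell in PC3, and 3 rose and 3 fell in DU145. In PC3 5 of 10 passed the test, beside 43.4% of the 13861 genes tested, and without PC3 vehicle sample 1, which stood apart, 6 of 10 passed. The share in PC3 was thus near that of all genes. Of all genes tested, 21.7% rose and 21.7% fell in PC3, and 17.2% rose and 16.8% fell in DU145. In DU145 6 of 10 passed, beside 34.0% of the 14313 genes tested. The vehicle and pentamidine groups did not overlap for 5 of the 10 genes in either line, beside 52.3% of genes tested in PC3 and 44.3% in DU145. The median log2 fold change of the 10 genes was 0.09 in PC3 and -0.04 in DU145, and that of all genes tested 0.00 and 0.01. With an absolute log2 fold change above 1 required as well, 0 of the 10 passed in either line with edgeR or DESeq2, and 0 did at an unadjusted p below 0.05, beside 4.75% of genes tested in PC3 and 2.03% in DU145. These counts use all samples. With 1 sample left out, the log2 fold change of TNFRSF10D in PC3 ran from -1.02 to -0.87, so it passed that limit at the lower end. Its adjusted p was at most 3.29e-06 over all edgeR and DESeq2 settings. All of these are changes in RNA relative to the library total of a bulk sample, where fewer cells expressing a gene and less of its RNA per cell cannot be told apart.

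**Figure D2:**
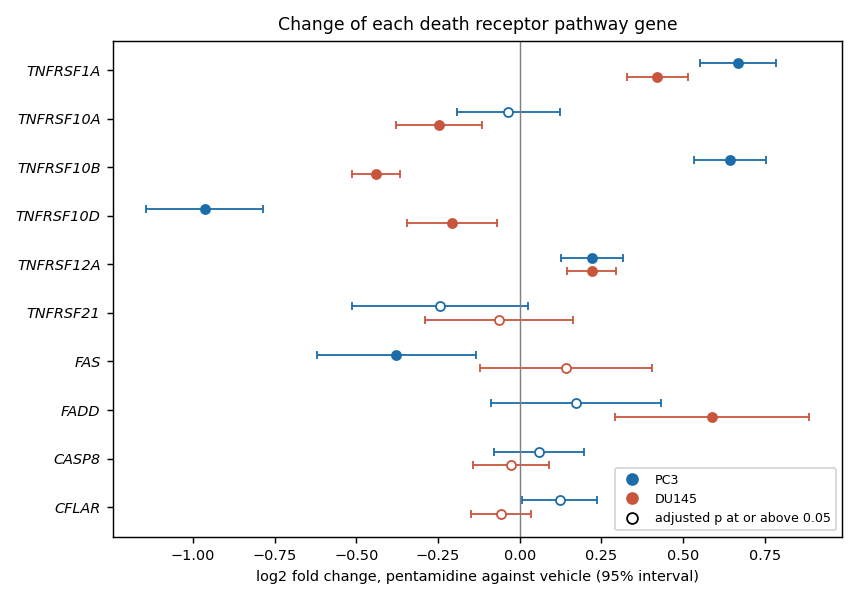
Log2 fold change of each gene, pentamidine against vehicle, with its 95% interval in PC3 (blue) and DU145 (red). Filled circles mark an adjusted p below 0.05, and TNFRSF10B is the gene whose filled circles lie on opposite sides of 0, at 0.64 and -0.44.

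TNFRSF10B, the gene of DR5, moved in opposite directions in the 2 lines. In PC3, vehicle samples 1, 2 and 3 held 127, 141 and 137 CPM and pentamidine samples 209, 213 and 209 CPM. Each treated sample was above each vehicle sample, and the log2 fold change was 0.64 (SE 0.05, 95% interval 0.53 to 0.75, adjusted p = 3.21e-08). In DU145 the vehicle samples held 225, 209 and 211 CPM and the pentamidine samples 158, 156 and 157 CPM. Here each treated sample was below each vehicle sample, with a log2 fold change of -0.44 (SE 0.04, 95% interval -0.51 to -0.37, adjusted p = 1.42e-14). Untreated PC3 samples thus lay below untreated DU145 samples, and treated PC3 samples above treated DU145 samples. The pentamidine effect in PC3 minus that in DU145 was 1.08 (SE 0.06, 95% interval 0.96 to 1.21, adjusted p = 2.98e-13) on the log2 scale, the difference of rank 995 by size among 15226 genes. Of 13125 genes tested in both lines, 175 (1.33%) were past the test upward in PC3 and downward in DU145. The gene RHOBTB2 overlaps exons of TNFRSF10B on the opposite strand, and the sources used here do not state whether counting used the strand. It held 3508 counts over the 12 samples against 30926 for TNFRSF10B, and its log2 fold change was 0.10 in PC3 (adjusted p = 0.455) and 0.17 in DU145 (adjusted p = 0.0990). Between vehicle groups RHOBTB2 was lower in PC3, by -0.75 (SE 0.10, adjusted p = 4.24e-06), as was TNFRSF10B, and how far shared reads enter either value was not tested.

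TNFRSF10D, the decoy receptor gene, fell strongly in PC3. The vehicle samples held 40.2, 39.6 and 41.2 CPM and the pentamidine samples 18.0, 21.8 and 22.1 CPM. All treated samples lay well below all vehicle samples, with sample 1 the lowest, and the log2 fold change was -0.96 (SE 0.08, 95% interval -1.14 to -0.78, adjusted p = 8.43e-08). In DU145 the vehicle samples held 41.6, 37.7 and 41.7 CPM and the pentamidine samples 32.8, 38.5 and 32.2 CPM. Pentamidine sample 2 lay above vehicle sample 2, so the groups overlapped, and the log2 fold change was -0.21 (SE 0.07, 95% interval -0.34 to -0.07, adjusted p = 0.0150). The call in DU145 was lost with DESeq2 (adjusted p = 0.0559), with edgeR under scaling by library size alone (0.0699), and without pentamidine sample 1 (0.0630), pentamidine sample 3 (0.0987) or vehicle sample 3 (0.0812), with a range of 0.00229 to 0.0987 over all settings. The effect was more negative in PC3 than in DU145 by a log2 difference of -0.76 (SE 0.12, adjusted p = 1.58e-05).

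TNFRSF10A, the gene of DR4, had 39.4, 38.8 and 38.7 CPM in PC3 vehicle and 34.8, 37.7 and 41.3 CPM in PC3 pentamidine samples. The treated samples spread around the vehicle level, and the log2 fold change of -0.03 (SE 0.07, adjusted p = 0.737) did not pass the test, with a sign that turned without pentamidine sample 1. In DU145 it had 40.7, 37.9 and 38.0 CPM in vehicle and 30.8, 33.7 and 32.6 CPM in pentamidine samples. The groups did not overlap, and TNFRSF10A fell, with a log2 fold change of -0.25 (SE 0.07, adjusted p = 0.00256). The difference between the lines was 0.21 (SE 0.10, adjusted p = 0.138) and did not pass the test. The TNFRSF10 genes are similar in sequence, so reads shared between them make their counts uncertain to an extent not measured here. TNFRSF10A also overlaps exons of 2 antisense transcripts, TNFRSF10A-AS1 and AC100861.1, with 327 and 731 counts over the 12 samples against 6399.

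A ratio of counts within a sample does not depend on how libraries are scaled. TNFRSF10B counts per TNFRSF10D count were 3.17, 3.55 and 3.32 in PC3 vehicle samples and 11.6, 9.78 and 9.42 in PC3 pentamidine samples. The balance between the genes of DR5 and its decoy thus moved from a geometric mean of 3.34 to 10.2, and the groups were fully apart. In DU145 the ratio was 5.41, 5.56 and 5.06 in vehicle and 4.80, 4.04 and 4.89 in pentamidine samples. It moved the other way, from 5.34 to 4.56, and again the groups did not overlap. TNFRSF10A counts per TNFRSF10B count went from 0.289 to 0.180 in PC3 and from 0.181 to 0.206 in DU145, both without overlap. For each of these 4 comparisons the two-sided exact permutation test gave p = 0.1, the smallest that 3 against 3 samples allow, and 0.16 after Benjamini-Hochberg adjustment over the 8 ratio comparisons made. The difference in ratio between the lines was not tested.

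**Figure D3:**
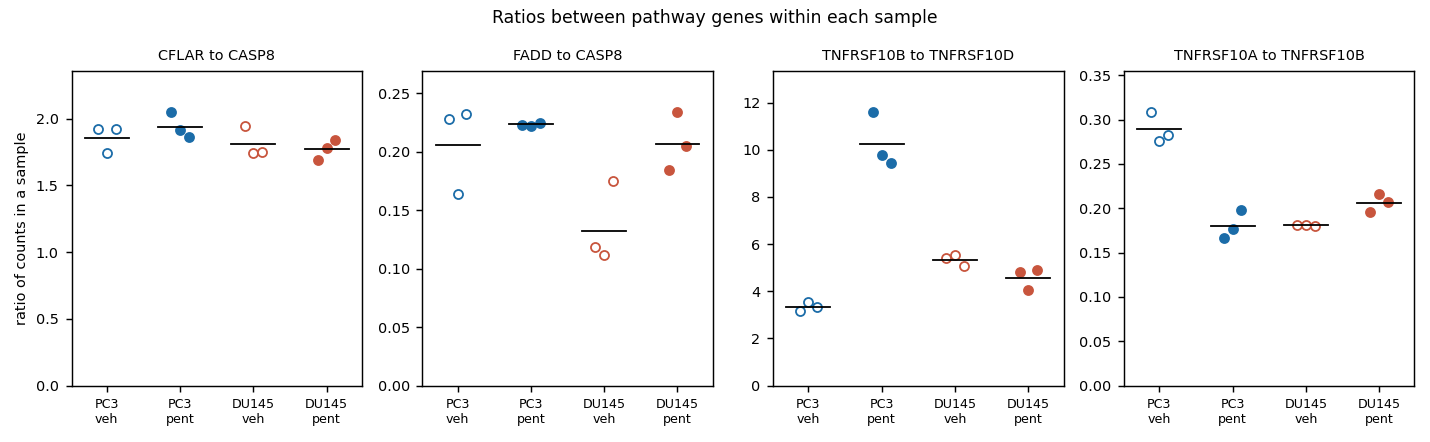
Ratio of counts between pairs of genes in each sample, with open circles for vehicle (veh), filled circles for pentamidine (pent), blue for PC3, red for DU145 and a black line at the geometric mean of each group. The ratio of TNFRSF10B to TNFRSF10D separates treated PC3 samples, at 9.42 to 11.6, from the other groups, while CFLAR to CASP8 overlaps between vehicle and pentamidine in each line.

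TNFRSF1A, the gene of TNFR1, rose in both lines. It held 88.5, 81.5 and 90.4 CPM in PC3 vehicle samples and 136, 142 and 135 CPM in PC3 pentamidine samples. In DU145 it held 70.9, 71.5 and 72.7 CPM in vehicle and 98.9, 91.8 and 94.4 CPM in pentamidine samples. Each treated sample was above each vehicle sample of its line, with a log2 fold change of 0.67 (SE 0.06, 95% interval 0.55 to 0.79, adjusted p = 4.15e-08) in PC3. In DU145 the log2 fold change was 0.42 (SE 0.05, 95% interval 0.33 to 0.51, adjusted p = 1.17e-10). The rise was larger in PC3, by a log2 difference of 0.25 (SE 0.07, adjusted p = 0.0129), which did not pass under scaling by library size alone (adjusted p = 0.0663, and 0.00483 to 0.0663 over all settings).

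FAS, the Fas receptor gene, was low and fell in PC3. Its PC3 vehicle samples held 17.6, 16.7 and 15.5 CPM and its pentamidine samples 11.5, 14.9 and 11.9 CPM. The highest treated sample, sample 2, lay just below the lowest vehicle sample, and the log2 fold change was -0.38 (SE 0.12, 95% interval -0.62 to -0.13, adjusted p = 0.0139). In DU145 it held 8.07, 7.58 and 8.52 CPM in vehicle and 8.72, 9.53 and 8.14 CPM in pentamidine samples. These groups overlapped, and the log2 fold change of 0.14 (SE 0.13, adjusted p = 0.434) did not pass. The call in PC3 was lost without pentamidine sample 1 (edgeR adjusted p = 0.0789) or sample 3 (0.0620), with a range of 0.00468 to 0.0789 over all settings. The difference between the lines was -0.52 (SE 0.17, adjusted p = 0.0277). It was lost with DESeq2 (adjusted p = 0.0528), and with edgeR without PC3 pentamidine sample 1 (0.0778) or 3 (0.0665), DU145 pentamidine sample 2 (0.0855), or DU145 vehicle sample 1 (0.0540) or 2 (0.0780), with a range of 0.00814 to 0.0855. FAS overlaps exons of ACTA2 on the opposite strand, which held 80 counts over the 12 samples against 2006.

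TNFRSF12A, the gene of Fn14, rose by a like amount in both lines. It held 359, 359.7 and 358 CPM in PC3 vehicle and 424, 413 and 416 CPM in PC3 pentamidine samples. In DU145 it held 164, 163 and 169.6 CPM in vehicle and 186, 198 and 188 CPM in pentamidine samples. The groups did not overlap in either line, and the log2 fold change was 0.22 (SE 0.04, adjusted p = 0.000687) in PC3 and 0.22 (SE 0.04, adjusted p = 3.79e-06) in DU145. The difference between the lines was 0.00, with a 95% interval of -0.11 to 0.12. TNFRSF21, the gene of DR6, had 243 to 322 counts in PC3 vehicle and 183 to 262 in PC3 pentamidine samples, and 164 to 189 and 157 to 185 in DU145. The groups overlapped in both lines and neither log2 fold change passed the test, at -0.24 (SE 0.13, adjusted p = 0.135) in PC3 and -0.06 (SE 0.11, adjusted p = 0.709) in DU145. Without PC3 vehicle sample 2 the change in PC3 passed, with an edgeR adjusted p of 0.0474 (range 0.0474 to 0.469).

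Of FADD, CASP8 and CFLAR, FADD alone passed the test, and in DU145. FADD, the adaptor gene, held 73, 79 and 127 counts in DU145 vehicle samples and 123, 165 and 139 in DU145 pentamidine samples. Vehicle samples 1 and 2 were low and sample 3 reached into the treated range, so the groups overlapped, and the log2 fold change was 0.59 (SE 0.15, 95% interval 0.29 to 0.89, adjusted p = 0.00133). In PC3 the vehicle samples held 210, 162 and 185 counts and the pentamidine samples 205, 192 and 229. These overlapped, with a log2 fold change of 0.17 (SE 0.12, adjusted p = 0.280). The difference between the lines, -0.42 (SE 0.21, adjusted p = 0.184), did not pass. Without DU145 vehicle sample 3 it was -0.67 and passed (edgeR adjusted p = 0.0221, range 0.0221 to 0.419). Over all settings this difference ran from -0.67 to -0.29. In PC3 the 95% interval ran from -0.09 to 0.43.

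CASP8, the initiator caspase gene, held 62.2, 64.0 and 59.2 CPM in PC3 vehicle and 62.0, 61.8 and 68.9 CPM in PC3 pentamidine samples. In DU145 it held 46.2, 49.8 and 49.8 CPM in vehicle and 47.4, 47.6 and 46.9 CPM in pentamidine samples. Both pairs of groups overlapped, and the log2 fold change was 0.06 (SE 0.07, 95% interval -0.08 to 0.20, adjusted p = 0.498) in PC3 and -0.03 (SE 0.06, 95% interval -0.14 to 0.09, adjusted p = 0.775) in DU145. CFLAR, the gene of the caspase 8 inhibitor FLIP, held 119.5, 111 and 114 CPM in PC3 vehicle and 127, 118 and 128 CPM in PC3 pentamidine samples. In DU145 it held 89.9, 87.0 and 87.4 CPM in vehicle and 80.0, 84.9 and 86.3 CPM in pentamidine samples. The PC3 groups overlapped and the DU145 groups were apart by a narrow margin. The log2 fold change of CFLAR was 0.12 (SE 0.05, 95% interval 0.01 to 0.24, adjusted p = 0.0834) in PC3 and -0.06 (SE 0.05, 95% interval -0.15 to 0.03, adjusted p = 0.356) in DU145, and neither passed the test. Without PC3 vehicle sample 1 the change in PC3 passed (edgeR adjusted p = 0.0340, range 0.0340 to 0.240). The difference between the lines was 0.18 (SE 0.07, adjusted p = 0.0757) and passed without PC3 vehicle sample 1 (0.0222) or PC3 pentamidine sample 2 (0.0341), with a range of 0.0222 to 0.295. The antisense transcript CFLAR-AS1, which overlaps CFLAR, held 126 counts over the 12 samples against 17814.

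CFLAR counts per CASP8 count were 1.92, 1.74 and 1.92 in PC3 vehicle samples and 2.05, 1.91 and 1.86 in PC3 pentamidine samples. The groups overlapped (two-sided exact permutation p = 0.6), as they did in DU145, where the geometric mean went from 1.81 to 1.77 (two-sided exact permutation p = 0.7). These p-values do not show that the ratio stayed the same, since 0.1 is the smallest that 3 against 3 samples allow. FADD counts per CASP8 count were 0.118, 0.111 and 0.175 in DU145 vehicle samples and 0.184, 0.234 and 0.205 in DU145 pentamidine samples. These groups did not overlap, with the smallest exact p of 0.1. In PC3 the FADD to CASP8 ratio went from 0.205 to 0.223, with overlap.

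In all, the pentamidine effect differed between the lines for 4 of the 10 genes, TNFRSF1A, TNFRSF10B, TNFRSF10D and FAS, beside 20.4% of the 15226 genes tested. For TNFRSF10B alone the difference was above 1 on the log2 scale, beside 2.62% of genes tested. TNFRSF10B and TNFRSF1A had the more positive effect in PC3, TNFRSF10D and FAS the more negative. Among genes tested in both lines, TNFRSF1A and TNFRSF12A were with the 9.94% that rose in both, and TNFRSF10D with the 9.62% that fell in both.

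Ligand genes of the receptor family were looked up in the same samples. TNF, the ligand of TNFR1, fell in both lines, from 8.08 ± 1.37 to 4.10 ± 0.603 CPM in PC3, a log2 fold change of -0.97 (SE 0.17, adjusted p = 0.000234). In DU145 it fell from 45.9 ± 2.53 to 11.2 ± 0.989 CPM, a log2 fold change of -2.02 (SE 0.08, adjusted p = 2.03e-27). TNFSF12, the gene of TWEAK, rose in DU145 by 0.64 (SE 0.14, adjusted p = 0.000198) and had a log2 fold change of 0.23 (SE 0.12, adjusted p = 0.140) in PC3. These were the 2 ligand genes with enough counts to be tested. TNFSF10, the gene of TRAIL, had at most 1 count in any sample, TNFSF15 at most 3 and LTA at most 6, and FASLG was not analysed here. Expression of TNFSF10, TNFSF15 and LTA was not detectable or barely detectable at this depth.

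Of the other receptors of the family, 1 was tested in PC3 and 3 in DU145. TNFRSF25, the death domain receptor DR3, rose in PC3 with a log2 fold change of 0.70 (SE 0.25, adjusted p = 0.0317), with 24 to 41 counts in vehicle and 43 to 56 in pentamidine samples. In DU145 it had 0.38 (SE 0.24, adjusted p = 0.224) and did not pass. The PC3 call was lost with DESeq2 (adjusted p = 0.0680) and with edgeR without PC3 pentamidine sample 1 (0.115) or 3 (0.0760) or vehicle sample 1 (0.0902) or 2 (0.129), with a range of 0.00446 to 0.129. TNFRSF11B, the soluble decoy osteoprotegerin, fell in DU145 with a log2 fold change of -0.65 (SE 0.19, adjusted p = 0.00462), lost without vehicle sample 3 (edgeR adjusted p = 0.0744, range 0.000813 to 0.0744). In PC3 it had 1 to 4 counts in vehicle and 4 to 8 in pentamidine samples and was not tested. TNFRSF10C, the other membrane decoy for TRAIL, had 2 to 3 counts in PC3 vehicle and 8 to 15 in PC3 pentamidine samples, too few for the test. In DU145 it had 8 to 13 and 16 to 23 counts, with an edgeR adjusted p of 0.0749. TNFRSF6B was not analysed here.

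Among 23 adaptors, kinases and ubiquitin enzymes of the receptor complexes, 5 rose and 6 fell in PC3, beside 21.7% and 21.7% of all genes, and 3 rose and 9 fell in DU145, beside 17.2% and 16.8%. Their median log2 fold change was 0.08 in PC3 and -0.06 in DU145. BIRC3, which encodes the ubiquitin ligase cIAP2, fell from 146 ± 17.0 to 56.3 ± 1.21 CPM in PC3 and from 411 ± 16.4 to 118 ± 1.09 CPM in DU145. Its log2 fold change was -1.37 (SE 0.07, adjusted p = 1.62e-10) in PC3 and -1.78 (SE 0.04, adjusted p = 2.09e-41) in DU145. TNFAIP3, the gene of the deubiquitinase A20 that restrains NF-κB signalling, fell as well, with log2 fold changes of -1.89 (SE 0.09, adjusted p = 2.02e-25) in DU145 and -0.54 (SE 0.12, adjusted p = 0.00133) in PC3. TNIP1, a partner of A20, and BIRC2, the gene of cIAP1, fell in DU145, with log2 fold changes of -0.82 (SE 0.05, adjusted p = 1.05e-21) and -0.63 (SE 0.04, adjusted p = 1.36e-20). In PC3 their log2 fold changes were -0.01 (adjusted p = 0.842) and -0.04 (adjusted p = 0.596), and the sign of that of TNIP1 turned without PC3 vehicle sample 1. RBCK1, which encodes a subunit of the linear ubiquitin ligase, rose in both lines, with log2 fold changes of 1.55 (SE 0.05, adjusted p = 1.03e-13) in PC3 and 0.92 (SE 0.04, adjusted p = 2.35e-27) in DU145. Before treatment BIRC3, TNFAIP3, TNIP1 and BIRC2 were lower in PC3 than in DU145, by edgeR log2 differences of -1.52, -1.54, -0.22 and -0.61. Their adjusted p-values were 1.08e-11, 8.60e-11, 0.00267 and 8.93e-08. RBCK1 did not differ past the test (0.04, adjusted p = 0.457). TNFAIP3 went from 38.2 to 10.2 CPM in DU145 and from 13.4 to 9.17 CPM in PC3. Of the genes whose promoter windows are printed above, TNFAIP3, BIRC3, TNIP1 and NFKB1 fell in DU145, where CFLAR and FAS did not pass the test. In PC3 FAS, BIRC3 and TNFAIP3 fell, and CFLAR, TNIP1 and NFKB1 did not pass. A relation between a match and the change was not tested.

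Among 7 tested genes of other death effector domain proteins and modulators, 2 rose and 1 fell in PC3, beside 21.7% and 21.7% of all genes, and 1 rose and 3 fell in DU145, beside 17.2% and 16.8%. PEA15, a death effector domain protein that binds FADD and caspase 8, rose in PC3 with a log2 fold change of 0.58 (SE 0.05, adjusted p = 1.29e-07) and fell in DU145 with -0.16 (SE 0.04, adjusted p = 0.000601). CASP10, the other initiator caspase of this pathway, had 0 to 5 counts in any sample and was not tested. Of 9 genes of executioner caspases and the mitochondrial arm, 1 rose and 4 fell in each line, beside 21.7% and 21.7% of all genes in PC3 and 17.2% and 16.8% in DU145. APAF1, the scaffold of the apoptosome, fell in PC3 with a log2 fold change of -0.51 (SE 0.07, adjusted p = 2.60e-05) and in DU145 with -0.16 (SE 0.06, adjusted p = 0.0443). The DU145 call was lost with DESeq2 (adjusted p = 0.113), and with edgeR in the fit of all 12 samples (0.0823), under scaling by library size alone (0.183) and without the count filter (0.0612). It was also lost with edgeR without DU145 pentamidine sample 1 (adjusted p = 0.186) or 2 (0.0933) or vehicle sample 1 (0.115) or 3 (0.124), with a range of 0.0200 to 0.186. Of the necroptosis genes that caspase 8 holds in check, MLKL, the pore-forming effector, fell in both lines, with log2 fold changes of -0.31 (SE 0.07, adjusted p = 0.00125) in PC3 and -0.54 (SE 0.06, adjusted p = 1.38e-09) in DU145. RIPK3 and ZBP1 had at most 1 count in any sample.

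Among 7 tested genes of transcription factors known to act on death receptor genes, 3 rose and 1 fell in PC3, beside 21.7% and 21.7% of all genes, and 3 rose and 2 fell in DU145, beside 17.2% and 16.8%. DDIT3, the gene of CHOP, which is known to activate TNFRSF10B, rose in PC3, with 47 to 86 counts in vehicle and 403 to 488 in pentamidine samples, a log2 fold change of 2.74 (SE 0.15, adjusted p = 2.39e-10). In DU145 it rose, with 75 to 82 counts in vehicle and 168 to 220 in pentamidine samples, a log2 fold change of 1.27 (SE 0.13, adjusted p = 1.58e-11). DDIT3 thus rose in both lines, and more in PC3, by 1.47 (SE 0.22, adjusted p = 9.06e-06) in edgeR's test of the difference. TNFRSF10B rose in PC3 and fell in DU145, and a relation between these changes was not tested. ATF4, which acts upstream of DDIT3, rose with log2 fold changes of 1.13 (SE 0.05, adjusted p = 2.32e-11) in PC3 and 0.97 (SE 0.03, adjusted p = 1.11e-31) in DU145. TP73, the gene of the transcription factor p73, fell in PC3 with a log2 fold change of -0.93 (SE 0.10, adjusted p = 7.19e-07) and had 0.14 (SE 0.10, adjusted p = 0.279) in DU145. NFKB1, the gene of the NF-κB subunit p50, fell in DU145 with a log2 fold change of -0.63 (SE 0.05, adjusted p = 9.51e-17). In PC3 it had -0.14 (SE 0.06, adjusted p = 0.0739), and passed there with all 12 samples in one fit (adjusted p = 0.0275) and under scaling by library size alone (0.0447), with a range of 0.0275 to 0.210. NFKB1 was lower in PC3 than in DU145 vehicle samples, at 69.3 against 104 CPM.

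FOXO3, known to activate TNFSF10, rose in PC3 with a log2 fold change of 0.89 (SE 0.07, adjusted p = 2.92e-08). In DU145 it had 0.18 (SE 0.07, adjusted p = 0.0276), a call lost with DESeq2 (adjusted p = 0.106), and with edgeR in the fit of all 12 samples (0.0776), without the count filter (0.0591), and without pentamidine sample 1 (0.116) or 2 (0.0972) or vehicle sample 2 (0.150) or 3 (0.125), with a range of 0.00492 to 0.150. Over the 64 genes of all 7 pathway lists, 12 rose and 14 fell among 50 tested in PC3, and 9 rose and 21 fell among 52 tested in DU145, beside the 21.7% and 21.7% of all genes in PC3 and the 17.2% and 16.8% in DU145. The effect was more positive in PC3 for 15 and more negative for 3 of 52, beside 10.2% and 10.3% of all genes tested.

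**Figure D4:**
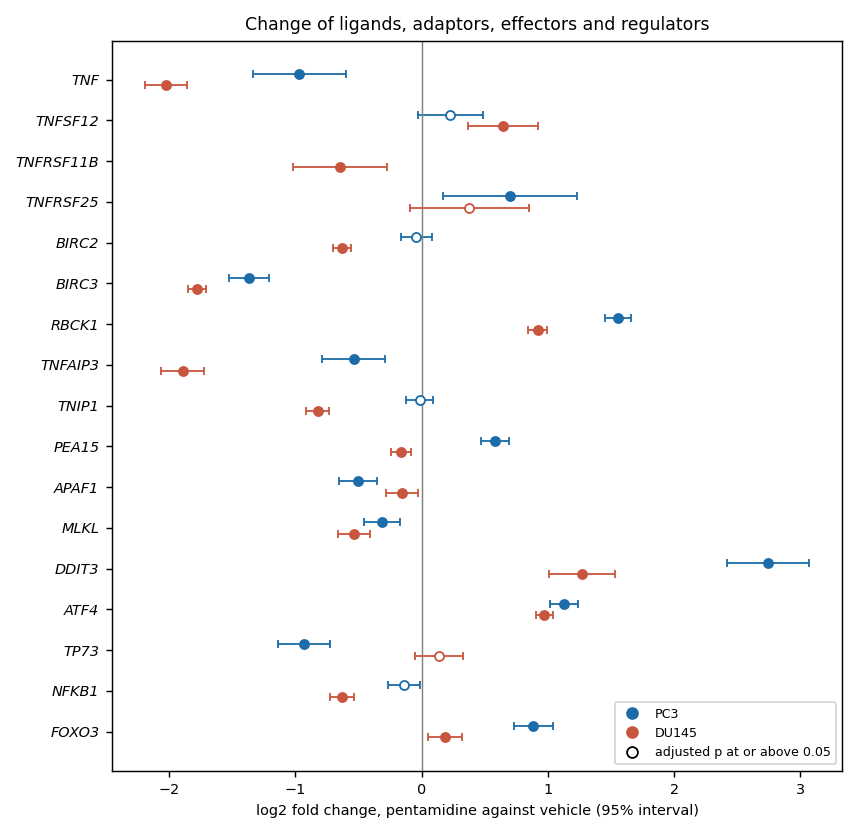
Log2 fold change of the named pathway genes, pentamidine against vehicle, with its 95% interval in PC3 (blue) and DU145 (red), and open circles at an adjusted p of 0.05 or above. TNF, BIRC3 and TNFAIP3 lie below 0 in both lines and further down in DU145, where TNF reaches -2.02, and TNFRSF11B is drawn for DU145 alone because it was not tested in PC3.

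Genes with the most similar pattern over the 12 samples were sought among 9352 genes with a mean of at least 10 CPM, by Pearson's r of log2 CPM centred within each line. These correlations share their libraries and the treatment contrast and are given as a description. The 3 genes closest to TNFRSF10D were DEPDC1B (r = 0.98), KIF20A (r = 0.98) and MCM2 (r = 0.98), of which KIF20A encodes a mitotic kinesin and MCM2 a subunit of the replicative helicase. Their log2 fold changes in PC3 and DU145 were -0.62 and -0.15 for DEPDC1B, -0.67 and -0.17 for KIF20A and -0.92 and -0.13 for MCM2. Closest to TNFRSF1A were RPL3 (r = 0.99), a ribosomal protein gene, SARS (r = 0.99), the cytosolic seryl-tRNA synthetase gene, and PCK2 (r = 0.99), the gene of mitochondrial phosphoenolpyruvate carboxykinase. PCK2 moved much further than TNFRSF1A, with log2 fold changes of 3.02 and 2.06. Closest to FADD were ENO3 (r = 0.93), ACOT2 (r = 0.92) and NCBP2-AS2 (r = 0.91). For TNFRSF10B, added after its values were seen, the closest were HSPA5 (r = 0.99), the gene of the endoplasmic reticulum chaperone BiP, SAT1 (r = 0.98), a polyamine acetyltransferase gene, and IER3 (r = 0.98), an early response gene. HSPA5, SAT1 and IER3 had log2 fold changes of 0.54 and -0.44, 0.82 and -0.42 and 0.92 and -0.60 in PC3 and DU145, with the same change of sign between the lines.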

How the data were processed

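The data are mRNA counts of 12 samples, 3 for each line and treatment as labelled, from cells kept 48 hours with the drug or its vehicle. Reads were aligned by the authors with HISAT2 (v2.1.0), and the counts they deposited are integers that had not been normalised. The counting program, annotation and strand setting are not given in the sources used here. Of 33595 entries with an Ensembl identifier, 32077 genes remained once repeated entries with the same name and counts were dropped, and 24 names had been turned into dates. There were 0 other sample columns, and the authors' comparison columns, which hold fold changes and p-values, and their FPKM table were not used. Genes were tested with edgeR 4.0.16 (R 4.3.3), using TMM, filterByExpr at a minimum count of 10, the quasi-likelihood test and Benjamini-Hochberg adjustment over all genes tested. Each line was tested with its own 6 samples, and the difference between lines with all 12. The main threshold was an adjusted p below 0.05. SE and 95% intervals come from the same fit. Alternatives were DESeq2 1.42.0, RLE factors, library size alone, omission of mitochondria-encoded genes, other count filters, the replicate number as a block, all 12 samples in one fit, and each sample left out in turn. The code was tested on simulated data. Transcript lengths came from GENCODE release 29. Named pathway genes were those in each list with an adjusted p below 0.05 and a change above 1.5-fold in either line, or else the gene that passed with the largest change, and DDIT3 and ATF4 in any case. Some further pathway and marker genes are not reported here. The closest genes by correlation were taken for the 3 genes with the largest mean change. The members and lists were chosen with earlier results of these data known. Depth was 13514195 to 15131436 counts per sample.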

Additional observations from a re-analysis of the deposited data

Results flagged for a closer look

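The pentamidine effect differed between PC3 and DU145 by edgeR's test of the difference itself for 4 of the 10 genes described in full and for 12 of the 17 named pathway genes, most of which were named because they changed, beside 20.4% of the 15226 genes tested. The pathway genes were tested for this in the main setting alone. Each value is the log2 fold change in PC3 minus that in DU145. Among the receptors the differences were 1.08 (adjusted p = 2.98e-13) for TNFRSF10B, 0.25 (adjusted p = 0.0129) for TNFRSF1A, -0.76 (adjusted p = 1.58e-05) for TNFRSF10D and -0.52 (adjusted p = 0.0277) for FAS. The call of TNFRSF1A was lost with edgeR under scaling by library size alone (adjusted p = 0.0663, range 0.00483 to 0.0663). That of FAS was lost with DESeq2 (adjusted p = 0.0528) and in 5 edgeR fits without 1 sample, and its range was 0.00814 to 0.0855. TNFRSF10B moved in opposite directions in the lines, and each of its 12 samples followed the direction of its line.

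For the ligand TNF, which fell less in PC3, the difference was 1.06 (adjusted p = 9.52e-05). Among the adaptors it was 1.35 (adjusted p = 2.18e-08) for TNFAIP3, 0.81 (adjusted p = 2.74e-09) for TNIP1, 0.64 (adjusted p = 1.98e-08) for RBCK1, 0.59 (adjusted p = 3.81e-07) for BIRC2 and 0.41 (adjusted p = 0.000753) for BIRC3. Over all 23 adaptors the difference was above 0 past the test for 8 and below 0 past the test for 1, beside 10.2% and 10.3% of all genes. That 1 was MAP3K14, at -0.66 (SE 0.10, adjusted p = 9.18e-06), which fell in PC3 and rose in DU145. TAB3, at 0.59 (SE 0.11, adjusted p = 0.000294), rose in PC3 and fell in DU145. The keratin markers KRT18 and KRT8 differed as well, by 0.74 (SE 0.08, adjusted p = 2.99e-08) and 0.34 (SE 0.08, adjusted p = 0.00279). For PEA15, which rose in PC3 and fell in DU145, it was 0.74 (adjusted p = 1.37e-09), and for APAF1, which fell more in PC3, -0.35 (adjusted p = 0.0107).

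Among the transcription factors the difference was 1.47 (adjusted p = 9.06e-06) for DDIT3, 0.70 (adjusted p = 8.19e-06) for FOXO3 and 0.49 (adjusted p = 9.49e-06) for NFKB1, and -1.07 (adjusted p = 3.00e-06) for TP73, which fell in PC3.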

How the results depend on the processing

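With fold changes above 1 on the log2 scale also required, the 10 genes past the test were 0 in each line (0 also at an unadjusted p below 0.05, with edgeR and DESeq2), and all genes past it 658 in PC3 and 290 in DU145. That count of 0 uses all samples, since TNFRSF10D in PC3 ranged from -1.02 to -0.87 with 1 sample left out and so passed the limit at the lower end. With DESeq2 the other receptors past the test in PC3 were 0 in place of 1 (1 at an unadjusted p below 0.05), since TNFRSF25 had an adjusted p of 0.0680. With each sample left out in turn, 4 to 6 of the 10 genes passed in PC3 and 5 to 6 in DU145, 3 to 5 differed between lines in their response, and 8 differed between vehicle groups. All genes past the test were 4866 to 6180, 4051 to 4421, 2644 to 3268 and 8777 to 9672 in these comparisons. The log2 change of the TNFRSF10B to TNFRSF10D ratio was 1.52 to 1.67 in PC3 and -0.28 to -0.14 in DU145. TNFRSF10A to TNFRSF10B gave -0.75 to -0.63 and 0.15 to 0.23, FADD to CASP8 -0.04 to 0.21 and 0.52 to 0.85, and CFLAR to CASP8 0.02 to 0.09 and -0.06 to 0.02.

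For pathway genes the differences between lines, and for the keratins, MAP3K14, TAB3 and RHOBTB2 all values, were tested in the main setting alone. Among the results recomputed, no log2 difference past the test changed sign. With 1 sample left out, the sign turned for the FADD to CASP8 ratio in PC3 and the CFLAR to CASP8 ratio in DU145, as their ranges show. Scaling by library size alone gave 0.0241 for CASP8 in DU145, -0.0651 for TNFRSF12A between lines, and 0.0596 for TNFRSF10A and 0.0565 for TNFRSF10D between vehicle groups. Leaving out 1 sample gave 0.0239 for TNFRSF10A and 0.00505 for TNIP1 in PC3, 0.0219 for TNFRSF21 in DU145, -0.0137, -0.00651, -0.00966 and -0.00893 for TNFRSF12A between lines, and 0.00999 and 0.000579 for TNFRSF10A and 0.00273 for TNFRSF10D between vehicle groups. Over these omissions the ranges were -0.101 to 0.0239 for TNFRSF10A, -0.0398 to 0.00505 for TNIP1, -0.133 to 0.0219 for TNFRSF21, -0.0137 to 0.0289 for TNFRSF12A, and -0.0405 to 0.00999 and -0.0721 to 0.00273 for TNFRSF10A and TNFRSF10D between vehicle groups. The cause of these turns was not tested. Scaling by library size alone moved the median of all genes by less than 0.1.

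Same-numbered vehicle and pentamidine samples showed no shared deviation from their group means, with correlations of -0.07 to 0.03. The sources used here do not state whether these samples were cultured or processed together. With the replicate number as a block, 5 of the 10 genes passed in PC3 and 6 in DU145, with 5599 and 4794 of all genes, and the block changed no call of the 10 genes. FAS, FADD and TNFRSF21, at 73 to 322 counts per sample, had the fewest counts of the 10.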
